A study of Mus musculus with 2 samples.

Results

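The genes described here are 9 members of the fibroblast growth factor (FGF) system in mouse skeletal muscle: the ligands Fgf1, Fgf2, Fgf7, Fgf10 and Fgf18, the receptors Fgfr1 and Fgfr2, and the feedback inhibitors Spry1 and Spry2. They were chosen by name, out of the 27998 genes in the files, and all 9 were present. For each gene the unique molecular identifiers (UMIs, which mark single RNA molecules) were summed over the cells of each cell class and tissue, and over the fibro-adipogenic progenitors (FAPs), the Pdgfra-expressing connective tissue cells of muscle. The cells came from C57BL/6J mice (10 in the series, ages not given in the sources used here) and were released with collagenase and dispase from quadriceps, a limb muscle, or from diaphragm, the respiratory muscle. Cells of several animals were combined before encapsulation, and each muscle gave 1 library of droplet 3′ RNA sequencing, so there were no replicates: tissue, pool of animals and library cannot be told apart, and no test between tissues was possible. Muscle fibres are too large for droplets, so the data describe mononuclear cells.

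FGFs are secreted proteins that bind tyrosine kinase receptors together with heparan sulfate chains on the cell surface. A bound receptor signals through adaptor proteins to the ERK kinases, and ERK signalling induces the Sprouty genes, whose products damp the same pathway. In muscle, FGF2 is known as a mitogen of satellite cells, the stem cells of the fibre, and Spry1 as a gene through which satellite cells return to quiescence. FGF7 and FGF10 are connective tissue ligands that act mostly on epithelia through a splice form of FGFR2, while FGF1 and FGF2 lack a classical secretion signal.

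The libraries held 5159 and 2499 barcodes with 50854519 and 28545242 UMIs. After limits on UMIs per barcode, 5010 quadriceps and 2430 diaphragm barcodes were kept, with medians of 9880.5 and 11983.5 UMIs, and 218 were left out. FAPs, taken as barcodes with at least 1 UMI of Pdgfra or Cd34 and at least 50 UMIs of Dcn, numbered 2494 in quadriceps (49.8%) and 2059 in diaphragm (84.7%), 4553 in all, with medians of 10719.5 and 12555 UMIs. Cell classes were named from marker lists, which the ending "-like" marks. The FAP-like cells were split by tissue: 3 clusters held 878, 1025 and 488 quadriceps cells and no diaphragm cell, and 1 held 1591 diaphragm and 87 quadriceps cells. A cluster of 539 diaphragm cells led by Mfap4 had 8 of 9 FAP markers raised but stayed unnamed, because the tenocyte marker Thbs4 was among its 10 leading genes; 525 of its cells met the FAP criteria. The 64 mesothelial-like cells of quadriceps overlapped the FAPs as well, since 59 met the criteria, and so did 58 of 119 tenocyte-like cells. The mesothelial-like cluster had 7 of 7 mesothelial markers raised but also 8 of 9 FAP markers. The tenocyte-like cluster had 8 of 8 tenocyte and 7 of 9 FAP markers raised. Smooth muscle-like cells lay almost wholly in different clusters in the muscles, with 1108 and 4 cells in 1 cluster and 0 and 42 in the other. Both clusters had 6 of 7 smooth muscle markers raised, beside 3 of 6 pericyte markers in the first and 4 of 6 in the second. Among their 10 leading genes were 5 smooth muscle markers in the first and 0 in the second. The libraries shared 5 barcode sequences.

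Upstream windows from RefSeq (GRCm38.p6) were read for 7 of the 9 genes. None was found for Fgfr1, and that of Fgf1 was not looked up. The 250 bases upstream of the start are shown for 4 whose RefSeq start coincides with the gene start in GENCODE M21: the feedback pair Spry1 and Spry2, whose leading cell classes differ below, and the ligands Fgf7 and Fgf18, which leaned to opposite FAP subtypes. Sequences run 5′ to 3′ on the gene's strand, and capitals mark the GC box GGGCGG on either strand.
Spry1 (chr3:37639697-37639946, plus strand): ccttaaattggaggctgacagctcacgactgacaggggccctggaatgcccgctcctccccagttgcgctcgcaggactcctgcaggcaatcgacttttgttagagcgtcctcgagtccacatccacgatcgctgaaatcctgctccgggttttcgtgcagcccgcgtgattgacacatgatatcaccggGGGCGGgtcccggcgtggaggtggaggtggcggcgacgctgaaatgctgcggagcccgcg
Spry2 (chr14:105896820-105897069, minus strand): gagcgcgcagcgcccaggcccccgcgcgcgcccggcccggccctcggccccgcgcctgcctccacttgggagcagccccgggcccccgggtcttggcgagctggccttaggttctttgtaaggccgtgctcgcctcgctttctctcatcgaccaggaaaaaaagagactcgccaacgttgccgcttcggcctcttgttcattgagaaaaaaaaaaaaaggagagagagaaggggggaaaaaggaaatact
Fgf7 (chr2:126034408-126034657, plus strand): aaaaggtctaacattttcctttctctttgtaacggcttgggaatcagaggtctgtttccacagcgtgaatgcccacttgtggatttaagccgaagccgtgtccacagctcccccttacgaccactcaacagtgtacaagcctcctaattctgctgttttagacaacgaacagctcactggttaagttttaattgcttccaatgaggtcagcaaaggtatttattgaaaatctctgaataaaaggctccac
Fgf18 (chr11:33147401-33147650, minus strand): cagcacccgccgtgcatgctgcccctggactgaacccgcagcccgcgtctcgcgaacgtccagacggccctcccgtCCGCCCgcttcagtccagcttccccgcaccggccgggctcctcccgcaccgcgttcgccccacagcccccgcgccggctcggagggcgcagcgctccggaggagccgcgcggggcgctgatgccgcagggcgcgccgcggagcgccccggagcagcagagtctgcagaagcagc
The GC box was found once in the windows of Spry1 and Fgf18, at 60 and 174 bases before the start, and also in those of Fgf2 and Fgf10, which makes 4 of 7 members against 32.7% of the 32817 upstream windows in RefSeq. The other letters searched, on both strands, were TGANTCA (AP-1, in 6.75% of all windows), CCGGAAG (ETS, 6.9%) and TATAAA (the TATA box, 12.4%), and none of them occurred in the 7 windows. G and C made up 43.6% of the Fgf7 window, 62.4% of both Sprouty windows and 77.2% of the Fgf18 window, against a median of 52.4% over all windows. A match of letters is a description of the window and not a bound site.

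The first question was which cells of each muscle carried the ligands. Levels are given as CPM, the UMIs of a gene per 1000000 UMIs of the class, with an exact Poisson 95% interval that covers counting error only. Fgf1 (ENSMUSG00000036585), a ligand for all FGF receptors, was at 161 CPM (155 to 167) in the 1108 smooth muscle-like cells of quadriceps and at 167 CPM (133 to 207) in the 46 of diaphragm. These intervals overlapped. Schwann-like cells of quadriceps followed at 118 CPM (98.9 to 141), apart from the quadriceps smooth muscle-like interval but not from that of diaphragm, while FAP-like cells stood at 32.9 CPM (30.8 to 35.2) in quadriceps and 22.1 CPM (20.1 to 24.3) in diaphragm. In quadriceps the smooth muscle-like level was 4.89 times that of FAP-like cells (4.53 to 5.29), and in diaphragm 7.53 times (5.88 to 9.55). Satellite-like cells held 1 Fgf1 UMI in quadriceps and 0 in diaphragm, and the latter allows up to 27.8 CPM. Once every cell was thinned to 2000 UMIs, 27.5% of quadriceps smooth muscle-like cells had an Fgf1 UMI (exact binomial interval 24.9 to 30.3%), as did 25.1% of the Schwann-like cells. Smooth muscle-like cells had a high mitochondrial share of UMIs, with a median of 17.0% in quadriceps, against 3.99% in FAP-like cells. Leaving out cells over 5% removed nearly all smooth muscle cells. In that setting 6 classes could be named in quadriceps, and Schwann-like cells had the highest Fgf1 level among them, at 49.8 CPM.

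The other ligands sat mainly in connective tissue cells. Fgf2 (ENSMUSG00000037225, chr3:37348346-37410108) was at 56.5 CPM (53.7 to 59.4) in FAP-like cells of quadriceps, 46.7 CPM (43.7 to 49.8) in those of diaphragm and 50.6 CPM (45.5 to 56.1) in the Mfap4-led cells. Tenocyte-like cells of quadriceps had 19.2 CPM of it, smooth muscle-like cells 11.8 CPM and satellite-like cells 10.5 CPM, so FAP-like cells were above each of these by more than the counting intervals. Fgf18 (ENSMUSG00000057967, chr11:33117430-33147400) was also at its highest in these cells without the mitochondrial limit, with 52.4 CPM and 59.4 CPM in FAP-like cells of quadriceps and diaphragm, 67.0 CPM in the Mfap4-led cells, 34.5 CPM in tenocyte-like cells and 17.3 CPM in smooth muscle-like cells of quadriceps.

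Fgf7 and Fgf10, the ligands of the FGFR2 splice form of epithelia, had few or no UMIs in smooth muscle-like cells. Fgf7 (ENSMUSG00000027208, chr2:126034658-126091185) was at 57.0 CPM (54.2 to 59.9) in FAP-like cells of quadriceps, 65.2 CPM (61.6 to 68.9) in those of diaphragm and 77.7 CPM (71.3 to 84.5) in the Mfap4-led cells. Its highest level was in Schwann-like cells of quadriceps, at 85.6 CPM (69.2 to 105) from 94 UMIs, an interval that overlapped that of the Mfap4-led cells but lay above both FAP-like levels. Shares of cells showed no such excess. After thinning to 2000 UMIs, 11.1% of these Schwann-like cells had an Fgf7 UMI (6.82 to 16.8%), against 10.4% of quadriceps FAPs (9.27 to 11.7%). Of the 181 Schwann-like cells, 17 met the FAP criteria. Tenocyte-like cells had 45.0 CPM, whereas the 16578598 UMIs of smooth muscle-like cells in quadriceps held 3 of Fgf7, which is 0.181 CPM (0.0373 to 0.529). Fgf10 (ENSMUSG00000021732, chr13:118669791-118792115) was at 6.81 CPM (5.85 to 7.88) and 8.12 CPM (6.90 to 9.48) in FAP-like cells and at 10.7 CPM (8.41 to 13.4) in the Mfap4-led cells. Outside these it had 1 UMI in tenocyte-like cells and 1 in a quadriceps cluster led by Hbb-bs, and 0 elsewhere; a count of 0 in the smooth muscle-like cells of quadriceps allows up to 0.181 CPM, and in Schwann-like cells up to 2.73 CPM.

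The receptors differed from the ligands in their cells. Fgfr1 (ENSMUSG00000031565, chr8:25513654-25575718), the main FGF receptor of mesenchymal cells, was highest in satellite-like cells, at 441 CPM (402 to 483) in quadriceps and 473 CPM (352 to 622) in diaphragm. FAP-like cells stood at 264 CPM (258 to 270) and 271 CPM (263 to 278), and the mesothelial-like and tenocyte-like cells of quadriceps at 239 and 237 CPM, with intervals that overlapped that of FAP-like cells in quadriceps. Smooth muscle-like cells had less of it in both muscles, at 120 CPM (114 to 125) and 117 CPM (88.5 to 151), and B-like cells of quadriceps had 28.8 CPM. Fgfr2 (ENSMUSG00000030849, chr7:130162451-133123350) was at low levels throughout. It was at 2.45 CPM (1.89 to 3.12) in FAP-like cells of quadriceps, from 65 UMIs in 26582537, and at 1.85 CPM (1.30 to 2.56) in those of diaphragm. The largest values, 14.8 CPM (6.39 to 29.2) in mesothelial-like and 10.5 CPM (5.26 to 18.9) in tenocyte-like cells of quadriceps, rest on 8 and 11 UMIs and overlap each other. The annotated span of Fgfr2 in GENCODE M21 runs over 2961 kb and overlaps 69 other genes, of which 47 are in the files, so its counts may depend on how reads in shared sequence were assigned.

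The Sprouty genes marked different cells. Spry1 (ENSMUSG00000037211, chr3:37639947-37644598) was at 781 CPM (729 to 837) in satellite-like cells of quadriceps and at 649 CPM (506 to 820) in the 20 of diaphragm, which is 4.58 times (4.24 to 4.93) and 3.72 times (2.90 to 4.72) the level in FAP-like cells of the same muscle. After thinning, 75.8% of satellite-like cells in quadriceps had a Spry1 UMI (68.9 to 81.9%). Mesothelial-like cells of quadriceps followed at 305 CPM (261 to 356), then tenocyte-like cells at 187 CPM and FAP-like cells at 171 CPM (166 to 176) and 174 CPM (168 to 180). The 16 mesothelial-like cells of diaphragm went the other way, at 79.8 CPM (41.3 to 139), below FAP-like cells of that muscle. Smooth muscle-like cells, in which Fgf1 was highest, had 8.50 CPM of Spry1 (7.16 to 10.0) in quadriceps and 2 UMIs in diaphragm.

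Spry2 (ENSMUSG00000022114, chr14:105891947-105896819) was highest in mesothelial-like cells at 255 CPM (215 to 302) and in NK-like cells at 212 CPM (163 to 271), both of quadriceps and with overlapping intervals. The NK-like cells held 64 Spry2 UMIs but 3 of Spry1, and 24 of 74 had a Spry2 UMI after thinning (32.4%). In the 6 NK-like cells of diaphragm there were 12 Spry2 UMIs and 0 of Spry1. The 16 mesothelial-like cells of diaphragm had Spry2 at 160 CPM (102 to 238), which overlaps the quadriceps interval. FAP-like cells had 133 CPM (129 to 138) in quadriceps and 113 CPM (108 to 118) in diaphragm, Mfap4-led cells 57.7 CPM (52.2 to 63.6), and satellite-like cells of quadriceps 41.9 CPM (30.5 to 56.3). Satellite-like cells of quadriceps thus had 0.315 times (0.228 to 0.424) the Spry2 level of FAP-like cells, beside 4.58 times the Spry1 level. In the 20 satellite-like cells of diaphragm Spry2 was at 130 CPM (71.0 to 218), 1.15 times FAP-like cells (0.629 to 1.94), so the deficit was not seen there.

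Members were then counted against FAP-like cells of the same muscle, with a difference of at least 1 in log2(CPM + 1) as the call. Only members at 50 CPM or more in either class were counted, beside all genes at that minimum. A member at 0 UMIs was taken at the level that 0 allows, while the shares of all genes kept 0 UMIs at 0. Fgf1 was at 32.9 and 22.1 CPM in FAP-like cells of quadriceps and diaphragm. It was therefore counted only where the other class reached 50 CPM, and could be counted as higher but not as lower. Its counts below thus add nothing to its levels given above. In quadriceps, smooth muscle-like cells had 1 of 7 members higher (Fgf1) and 6 lower, where 18.2% and 30.3% of the 3741 genes compared were higher and lower. Satellite-like cells had 1 of 6 higher (Spry1) and 4 lower, against 11.5% and 23.8% of genes, and Schwann-like cells 1 of 7 higher (Fgf1) and 4 lower, against 17.2% and 17.7%. Mesothelial-like cells had 0 of 6 higher and 3 lower (Fgf2, Fgf7 and Fgf18), against 7.8% and 9.86%, and tenocyte-like cells 0 of 6 higher and 1 lower (Fgf2), against 6.77% and 11%.

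The immune-like classes and endothelial-like cells of quadriceps had 0 of 6 members higher. Lower were 6 in B-like cells (36.1% of genes), 6 in macrophage or monocyte-like cells (29.4%), 5 in NK-like cells (30.4%), where Spry2 was the exception, 6 in T-like cells (30.1%) and 6 in endothelial-like cells (15.9%), and the shares of genes higher were 19%, 19.4%, 22.3%, 16.6% and 21.7%, in that order. In the quadriceps cells led by Hbb-bs, with a median mitochondrial share of 70.9%, 1 of 7 members was higher (Fgf1) and 6 lower, where 5.94% and 81.6% of genes were.

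In diaphragm, smooth muscle-like cells had 1 of 6 members higher (Fgf1) and 5 lower, against 20.5% and 31.6% of 3694 genes, and satellite-like cells 1 of 5 higher (Spry1) and 2 lower (Fgf7 and Fgf18), against 16.2% and 30.7%. B-like and T-like cells had 5 of 5 lower, with 37.7% and 28.3% of genes lower and 20.2% and 19.6% higher. The cells led by Hbb-bs had 0 of 5 higher and 1 lower (Spry1), against 6.11% and 40.3%. The Mfap4-led cells had 0 of 6 higher and 0 lower, with 2.87% and 3.56% of 3174 genes, and their Fgf1, under the minimum, was at 7.70 CPM (5.78 to 10.0) against 22.1 CPM.

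Over the 11 named classes of quadriceps with at least 20 cells, 6 of the 9 members had their highest level outside FAP-like cells. The leading class was the same in all 8 settings for Fgf2, Fgf7, Fgf10, Fgfr1 and Spry1. With cells over 5% mitochondrial UMIs left out, tenocyte-like cells led for Fgf18 (61.6 CPM) and for Spry2 (153 CPM), and Schwann-like cells for Fgf1 and Fgfr2. The class that led for Spry2 was NK-like (212 CPM) with each library clustered on its own and FAP-like (155 CPM) with 10 components, and in those settings Fgfr2 was highest in smooth muscle-like and tenocyte-like cells, in that order. These 3 settings left 6, 10 and 7 named classes to compare, and the mitochondrial limit had removed nearly all smooth muscle cells.

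**Figure D1:**
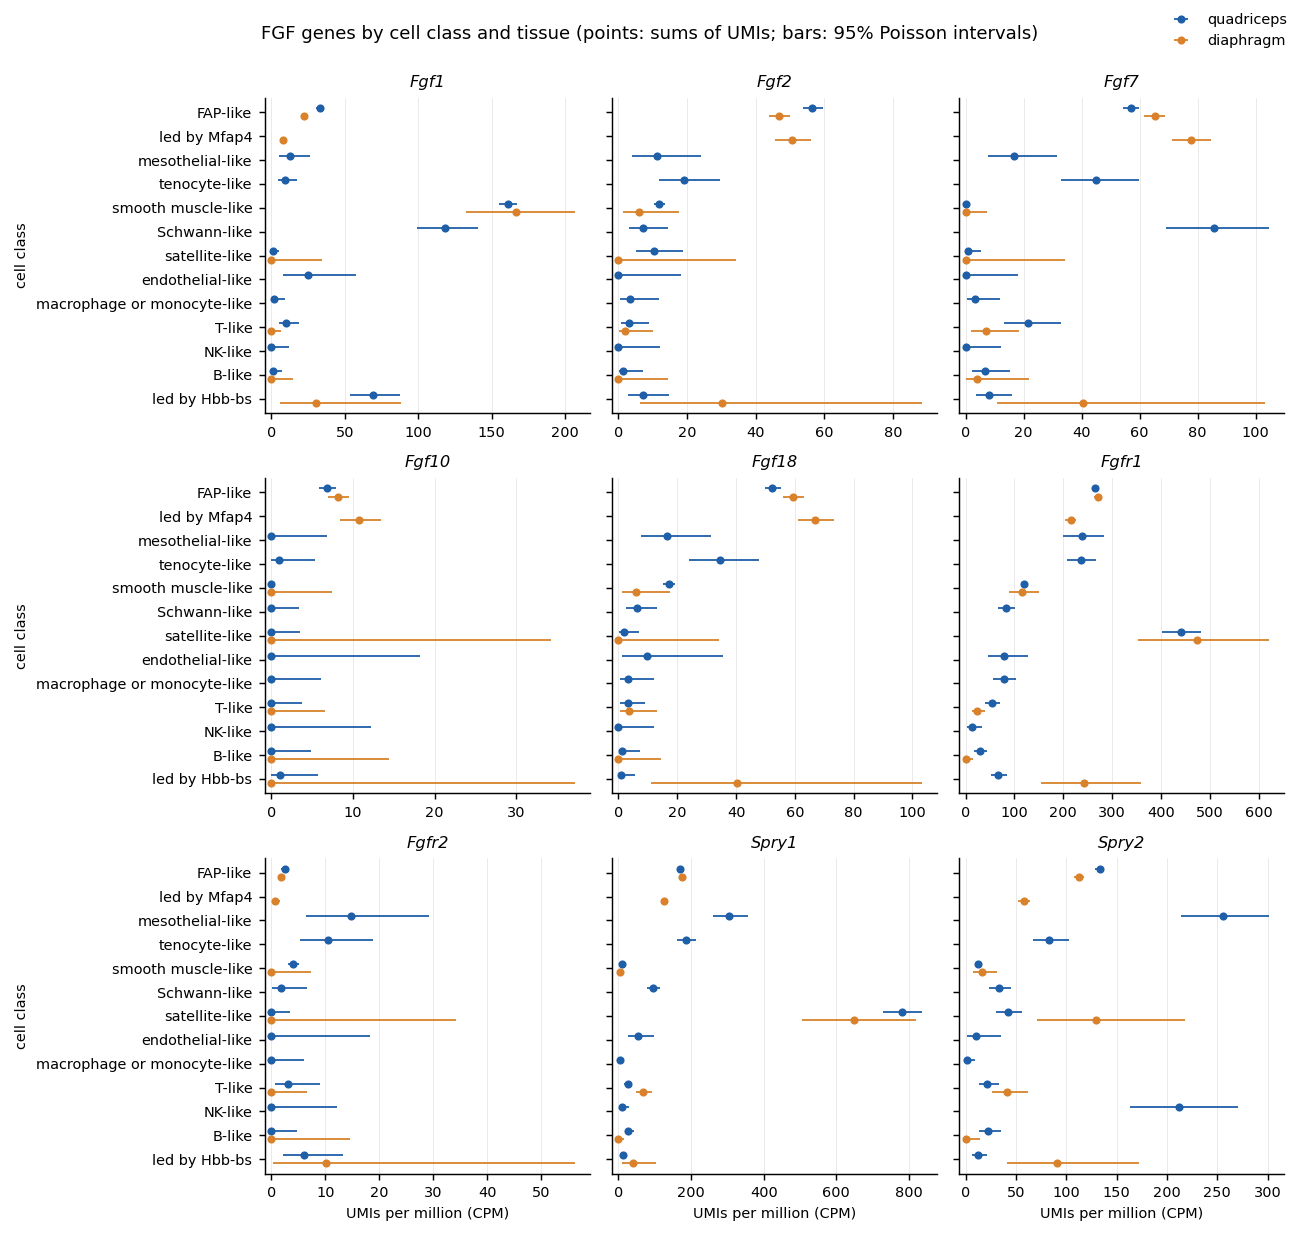
Level of each FGF gene (CPM, x axis, each panel on its own scale) by cell class with at least 20 cells, in quadriceps (blue) and diaphragm (orange), with bars for exact Poisson 95% intervals. Fgf1 peaks in smooth muscle-like cells, Fgf2, Fgf10 and Fgf18 in FAP-like or Mfap4-led cells, Fgfr1 and Spry1 in satellite-like cells, and Spry2 in mesothelial-like and NK-like cells.

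To place these patterns among other genes, the 3 genes with the highest Pearson correlation with each member were taken over the 19 groups of class and tissue with at least 20 cells, among 7187 genes. These groups share their libraries and differ in depth, and the values are descriptions. Fgf1 was most like Klhdc8b (0.92), Peli2 and Tns1, and Fgf2 like Gm26523 (0.92), Gmppa and Axl. Fgf7 was most like Sfrp1 (0.90), Adamtsl3 and Adgrd1, Fgf10 like Mmp3 (0.87), Ackr4 and C7, and Fgf18 like C1qtnf2 (0.93), Csf1 and Gm9780. Fgfr1 was most like Zhx3 (0.94), Spred1 (0.94) and Nfib, Spry1 like Mest (0.93), Igsf3 and Rgmb, Spry2 like Tmem9 (0.88), Plekha5 and Camk2n1, and Fgfr2, whose correlations were the lowest of the 9 members, like Col6a3 (0.76), Pdzrn3 and Bmp5.

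The next comparison set FAPs of diaphragm against FAPs of quadriceps. In quadriceps the 2494 FAPs had 32.8 CPM of Fgf1, 53.7 CPM of Fgf2, 56.5 CPM of Fgf7, 6.38 CPM of Fgf10 and 50.6 CPM of Fgf18. In the 2059 FAPs of diaphragm the same ligands were at 18.8, 47.6, 68.0, 8.82 and 61.2 CPM, in that order. Fgf7, Fgf10 and Fgf18 were thus the members with the higher level in diaphragm. Of the receptors, Fgfr1 was at 260 and 253 CPM and Fgfr2 at 3.03 and 1.59 CPM in quadriceps and diaphragm. Spry1 was at 173 and 161 CPM, and Spry2 at 132 and 98.4 CPM.

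None of the 9 members, of which 6 reached 50 CPM, differed by 2-fold between the tissues on the log2(CPM + 1) scale, in a comparison in which 3.65% of 3319 genes were higher in diaphragm by that fold and 3.04% lower. On that scale the largest difference was that of Fgf1, at a log2 fold of -0.77 and a ratio of 0.573 (0.512 to 0.639), followed by Fgfr2 at -0.64 (ratio 0.525, 0.354 to 0.768) and Spry2 at -0.42 (ratio 0.746, 0.709 to 0.784). Fgf10 had a log2 fold of 0.41 (ratio 1.38, 1.13 to 1.69), Fgf18 of 0.27 and Fgf7 of 0.26. Fgf2 stood at -0.17 and Spry1 at -0.11, near the median of -0.10 over all genes compared, and Fgfr1 at -0.04 (ratio 0.972, 0.940 to 1.00). The interval of the ratio included 1 for Fgfr1 and for no other member, but these intervals hold no spread between animals. The median absolute log2 fold was 0.27 over all 9 members, of which only 6 reached 50 CPM, and 0.20 over the 3319 genes, which all did. The sets thus differ in level.

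Other cell types and states differed between the same FAPs. The 12 immediate early genes listed summed to 3178 CPM in quadriceps and 16640 CPM in diaphragm, and 12 of 12 were past 2-fold higher there. Smooth muscle markers summed to 1772 CPM in quadriceps, with 5 of 7 past 2-fold lower in diaphragm, where they summed to 59.2 CPM. Schwann markers summed to 213 and 8.36 CPM, with 8 of 8 past 2-fold lower in diaphragm. Mesothelial markers went from 9.98 to 117 CPM, with 6 of 7 past 2-fold higher and 1 lower, and tenocyte markers from 972 to 1680 CPM in sum, with 1 of 8 past 2-fold higher and 6 lower. The part of these differences in the values of the members was not tested, but the log2 fold of Fgf1 was -0.62 without 47 quadriceps FAPs that carried smooth muscle genes, -0.59 without doublet calls and -0.40 with cells over 5% mitochondrial UMIs left out.

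**Figure D2:**
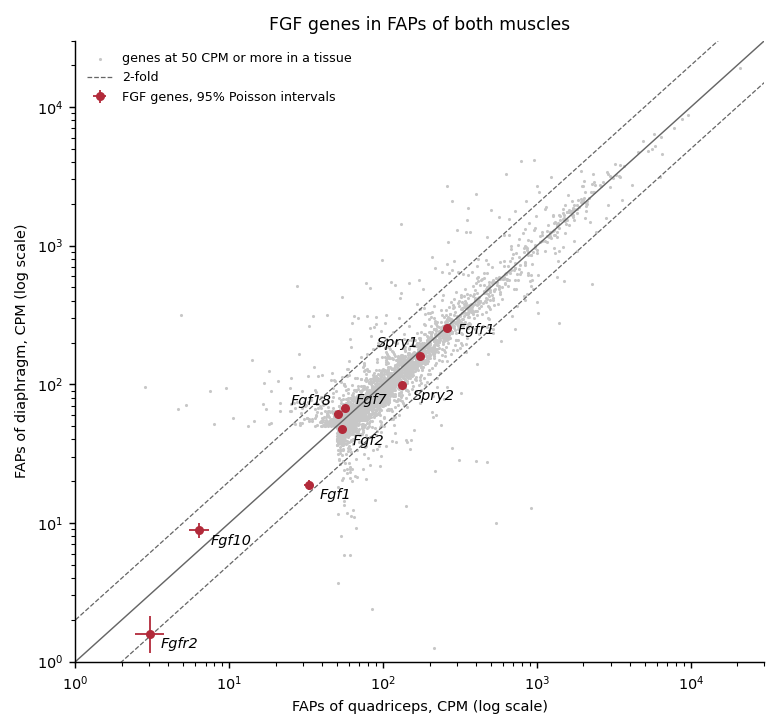
Levels in FAPs of quadriceps (x axis) and diaphragm (y axis), in CPM on log scales, for genes at 50 CPM or more in either tissue (grey) and the 9 FGF genes (red, with exact Poisson 95% intervals). Dashed lines mark 2-fold; the FGF genes lie between them, with Fgf1 and Fgfr2 nearest the lower line.

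Shares of cells gave the same picture at equal depth. After thinning to 2000 UMIs, 40.2% of FAPs in quadriceps (38.2 to 42.1%) and 40.0% in diaphragm (37.9 to 42.2%) had an Fgfr1 UMI, against 2.48% and 1.45% of immune-like cells, whose median depths were 3628.5 and 5122.5 UMIs. Without thinning the FAP shares were 89.3% and 92.3%. Spry1 was seen in 25.8% and 24.6% of thinned FAPs, against 1.66% and 6.52% of immune-like cells, and Spry2 in 21.5% and 16.6%, against 5.80% and 7.25%. Among ligands, the thinned shares in quadriceps and diaphragm were 10.4% and 12.5% for Fgf7, 9.48% and 10.8% for Fgf18, 9.16% and 8.65% for Fgf2, 5.58% and 3.06% for Fgf1, and 1.33% and 1.90% for Fgf10. No ligand was seen in more than 0.207% of the 483 immune-like cells of quadriceps, and none in the 138 of diaphragm (exact binomial interval 0 to 2.64%). For 6 members the FAP interval lay above that of immune-like cells in both tissues, and the exceptions were Fgf1, Fgf10 and Fgfr2. Unthinned, Fgf7 was seen in 36.8% and 51.5% of FAPs and Fgf10 in 5.05% and 8.94%.

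FAPs carried ligands and receptor together at about the rate that their separate shares give. After thinning, any of the 5 ligands was seen in 31.3% of FAPs in quadriceps (29.4 to 33.1%) and 32.0% in diaphragm (30.0 to 34.1%), and a ligand and Fgfr1 in the same cell in 13.1% and 13.4%, where the product of the shares is 12.6% and 12.8%. Spry1 or Spry2 was seen in 40.4% and 36.6%, and both in 6.83% and 4.57%.

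Within FAPs, in the main setting, most members differed more between the subtypes compared below than between tissues, but Fgfr2 and Spry2 did not. The 2330 quadriceps and 1515 diaphragm FAPs of the FAP-like clusters were clustered again, without the members, the other FGF pathway genes or the FBN1+ and LUM+ markers, into 8 subclusters named by their leading genes. FBN1+ and LUM+ are the FAP subtypes of the study, and 3 subclusters counted as FBN1+ (Ccl2 Ccl7, Cmah Fam167a and Dmkn Sbsn) and 3 as LUM+ (Sfrp1 Gdf10, Hsd11b1 Cxcl14 and Ptn Clu). In the order named, the FBN1+ subclusters had 6, 9 and 9 FBN1+ markers up, and the LUM+ subclusters had 3, 6 and 3 LUM+ markers up. The FBN1+ list was Fbn1, Mfap5, Pcolce2, Loxl1, Sema3c, Procr, Cd248, Pi16 and Dpp4. The LUM+ list was Lum, Apod, Smoc2, Col15a1, Cxcl14, Hsd11b1 and Mme, so most of it was not up in Sfrp1 Gdf10 and Ptn Clu. The Hsd11b1 Cxcl14 subcluster also had 1 FBN1+ marker up. The Ptx3 Col6a5 subcluster, with 226 diaphragm and 37 quadriceps cells, had 2 FBN1+ and 0 LUM+ markers up and counted as neither. The Tagln Acta2 subcluster held 47 quadriceps cells, all of them called doublets by Scrublet, with a median of 26202 UMIs and 30814 CPM of smooth muscle markers, so its 111 CPM of Fgf1 is not read as that of a FAP and it is left out of the orders given next.

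Spry1 differed widely between subclusters. In quadriceps it was at 365 CPM (346 to 384) in the Hsd11b1 Cxcl14 subcluster, 278 CPM (263 to 294) in Ptn Clu, 163 CPM in Ccl2 Ccl7, 150 CPM in Sfrp1 Gdf10, 47.6 CPM in Cmah Fam167a, 34.0 CPM in Ptx3 Col6a5 and 12.4 CPM (9.10 to 16.5) in Dmkn Sbsn. In diaphragm the same subclusters stood at both ends, with 331 CPM (275 to 396) in Ptn Clu and 323 CPM (307 to 340) in Hsd11b1 Cxcl14, whose intervals overlap, and 6.85 CPM (2.75 to 14.1) in the 70 Dmkn Sbsn cells. In quadriceps the contrast was present in each of the 7 ways of subclustering tried: the subcluster with the most Dmkn had 9.44 to 23.7 CPM of Spry1, and that with the most Cxcl14 had 342 to 371 CPM. In diaphragm these subclusters shrank to as few as 1 cell, with Spry1 levels from 0 to 26.3 CPM and from 301 to 445 CPM.

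Fgf2 ran the other way. It was highest in Dmkn Sbsn FAPs, at 131 CPM (120 to 143) in quadriceps and 125 CPM (105 to 149) in diaphragm, then in Cmah Fam167a FAPs, at 91.6 and 87.4 CPM. Its lowest levels were in Hsd11b1 Cxcl14 FAPs, at 23.6 CPM (19.0 to 28.9) and 23.2 CPM (19.0 to 27.9), and Ptn Clu FAPs of quadriceps overlapped these. The Dmkn subcluster of quadriceps had 121 to 131 CPM of Fgf2 over the 7 ways of subclustering, and the Cxcl14 subcluster 21.5 to 27.4 CPM. Fgf2 and Spry1 are neighbours: on chromosome 3 of GRCm38 they lie on the same strand, 230 kb apart, with Nudt6, Spata5 and 4930594O21Rik between them. This was noticed after the values had been seen. Nudt6, which overlaps the end of Fgf2 on the opposite strand, had 4.35 and 4.20 CPM in FAPs, and Spata5 6.34 and 5.41 CPM.

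Fgfr1 was also highest in Dmkn Sbsn FAPs, at 335 CPM (317 to 354) in quadriceps and 394 CPM (357 to 435) in diaphragm, overlapping Cmah Fam167a FAPs at 321 and 348 CPM, and its range was narrow, down to 216 CPM (203 to 229) and 232 CPM (219 to 247) in Sfrp1 Gdf10 FAPs. Fgf1 was highest in the Ccl2 Ccl7 subcluster, of which it was 1 of the 10 leading genes, at 66.1 CPM (58.8 to 74.0) in quadriceps and 54.8 CPM (48.0 to 62.4) in diaphragm. The Cmah Fam167a FAPs followed at 54.3 and 53.7 CPM, with overlapping intervals. This depended on the subclustering: the subcluster with the most Ccl7 had 6.41 to 93.9 CPM of Fgf1 in quadriceps and 13.6 to 105 CPM in diaphragm over the ways tried. In Sfrp1 Gdf10 FAPs it was at 9.90 CPM and 5.34 CPM, and in Dmkn Sbsn FAPs at 5.27 CPM (3.22 to 8.14) in quadriceps but 21.5 CPM (13.5 to 32.6) in diaphragm. Fgf18 was highest in Cmah Fam167a FAPs, at 77.7 CPM (67.8 to 88.7) and 120 CPM (101 to 143), overlapping Ccl2 Ccl7 FAPs at 70.9 and 93.5 CPM, and lowest in Sfrp1 Gdf10 FAPs, at 36.0 and 32.3 CPM.

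Fgf7 and Fgf10 were highest in the same subclusters. In Sfrp1 Gdf10 FAPs Fgf7 was at 112 CPM (102 to 121) in quadriceps and 99.4 CPM (90.6 to 109) in diaphragm, and Fgf10 at 18.6 CPM (15.0 to 22.8) and 15.6 CPM (12.2 to 19.6). In Ptx3 Col6a5 FAPs Fgf7 was at 113 CPM (84.3 to 147) and 82.3 CPM (72.5 to 93.0), and Fgf10 at 46.7 CPM (29.3 to 70.7, from 22 UMIs) and 17.2 CPM (12.9 to 22.5). In Ccl2 Ccl7 FAPs of quadriceps they were at 27.9 CPM and 1.11 CPM. Over the 7 ways of subclustering, the subcluster with the most Gdf10 had 112 to 143 CPM of Fgf7 in quadriceps and 90.3 to 109 CPM in diaphragm, from as few as 31 and 90 cells. Fgf10 was less stable there, at 3.08 to 29.0 CPM and 6.33 to 19.4 CPM. Spry2 varied less than Spry1, from 79.9 CPM (71.1 to 89.4) in Dmkn Sbsn FAPs to 214 CPM (200 to 229) in Hsd11b1 Cxcl14 FAPs of quadriceps, and in diaphragm Dmkn Sbsn and Hsd11b1 Cxcl14 FAPs were at 160 and 157 CPM, with overlapping intervals. Fgfr2 stayed between 0 and 8.50 CPM, with at most 24 UMIs in a subcluster of 1 tissue.

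**Figure D3:**
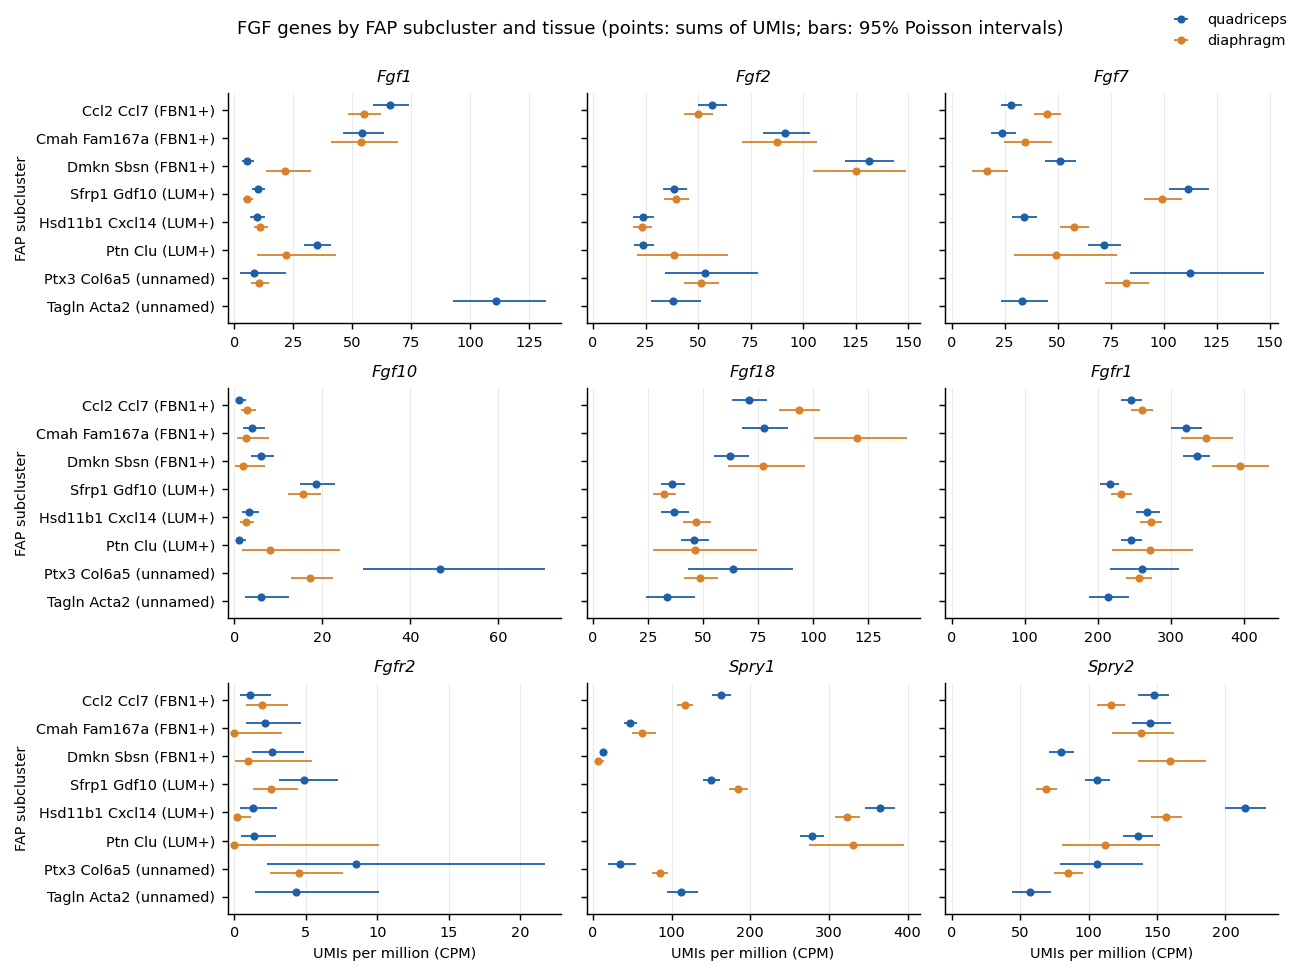
Level of each FGF gene (CPM, x axis, each panel on its own scale) in 8 FAP subclusters, in quadriceps (blue) and diaphragm (orange), with bars for exact Poisson 95% intervals. Spry1 is highest in the Hsd11b1 Cxcl14 and Ptn Clu subclusters and lowest in Dmkn Sbsn, Fgf2 is highest in Dmkn Sbsn, and Fgf7 and Fgf10 share the Sfrp1 Gdf10 and Ptx3 Col6a5 subclusters.

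The subclusters were then joined into FBN1+ FAPs (943 cells in quadriceps, 448 in diaphragm) and LUM+ FAPs (1303 and 841 cells), and members were called where both tissues showed a change of at least 1 in log2(CPM + 1) with 1 sign. Fgf1 and Fgf2 were called higher in FBN1+ FAPs, in a comparison in which 2.99% of 3046 genes were, and Fgf10 and Spry1 lower, where 2.53% were. The 3046 genes were those at 50 CPM or more, which 6 of the 9 members reached, and among these 6 only Fgf2 and Spry1 were called. Fgf1 and Fgf10 were called from lower levels. Over all 13505 genes with a UMI in both subtypes of both tissues, as the 9 members had, 1.78% were higher and 2.37% lower. Fgf1 was at 42.3 CPM in FBN1+ and 18.1 CPM in LUM+ FAPs of quadriceps (log2 fold 1.18) and at 49.3 and 8.68 CPM in diaphragm (2.38). Fgf2 was at 90.9 and 29.3 CPM in quadriceps (1.60) and at 68.5 and 31.5 CPM in diaphragm (1.10). Fgf10 was at 3.51 and 8.27 CPM in quadriceps (-1.04) and at 2.68 and 8.99 CPM in diaphragm (-1.44). Spry1 was at 82.4 CPM in FBN1+ and 256 CPM in LUM+ FAPs of quadriceps (-1.62) and at 89.5 and 257 CPM in diaphragm (-1.51). The subclusters within a subtype differed. In quadriceps Fgf1 was at 34.9 CPM in LUM+ Ptn Clu FAPs and 5.27 CPM in FBN1+ Dmkn Sbsn FAPs. Fgf10 was at 1.12 and 6.06 CPM in the same subclusters, in that order. Spry1 was at 150 CPM in LUM+ Sfrp1 Gdf10 and 163 CPM in FBN1+ Ccl2 Ccl7 FAPs, with overlapping intervals. The calls of Fgf1, Fgf10 and Spry1 thus hold for the pooled subtypes and not for each subcluster.

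Of the other members, Fgf7 had log2 folds of -1.10 in quadriceps and -0.98 in diaphragm, and Fgf18 of 0.80 and 1.24, each past 1 on this scale in 1 tissue. Fgfr1 was near equal, at 0.29 and 0.23, while Fgfr2 (-0.33 and 0.06) and Spry2 (-0.25 and 0.16) changed sign between tissues. Of these results, Spry1 was lower and Fgf2 higher in FBN1+ FAPs of both tissues in each of the 8 settings tried, with ranges of -2.72 to -1.62 and 1.51 to 1.88 in quadriceps and of -1.99 to -0.97 and 0.77 to 1.10 in diaphragm, so that the diaphragm fold fell short of the call in some settings. Fgf1, Fgf10 and Fgf18 did not keep their direction: with genes centred over both libraries before subclustering they stood at -0.40, 0.93 and -0.29 in diaphragm, and 0 members were then called higher and 1 lower. Over the 7 alternatives the call was kept in 6 for Spry1, 3 for Fgf2, 3 for Fgf1 and 1 for Fgf10. Without doublet calls Fgf1 stood at 0.28 in quadriceps, and with cells over 5% mitochondrial UMIs left out Fgf10 stood at -0.35 and -0.26.

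**Figure D4:**
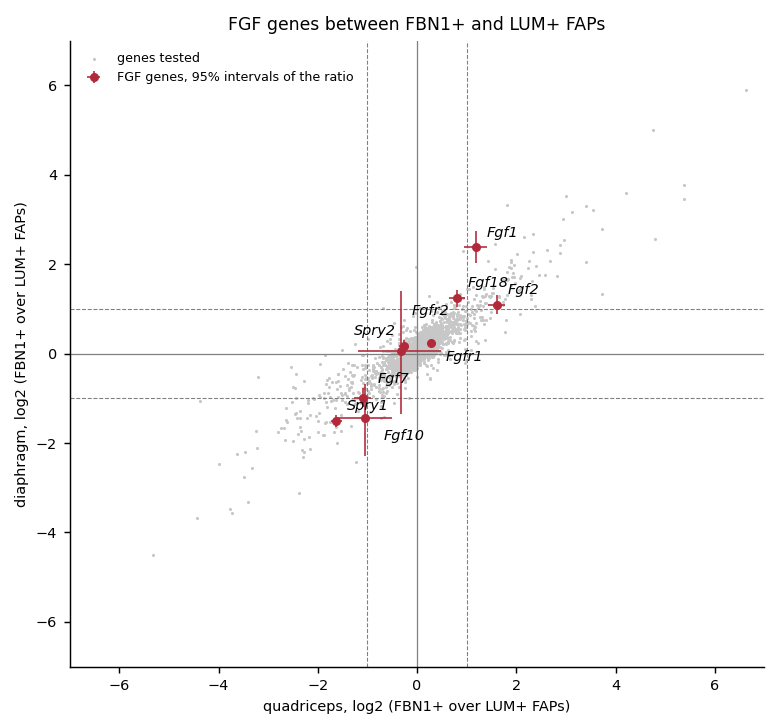
Log2 fold of FBN1+ over LUM+ FAPs in quadriceps (x axis) and diaphragm (y axis) for the 3046 genes compared (grey) and the 9 FGF genes (red, with exact 95% intervals of the ratio); dashed lines mark 2-fold. Fgf1 and Fgf2 lie past 2-fold on the FBN1+ side in both tissues, Spry1 and Fgf10 on the LUM+ side, and Fgfr1 and Spry2 near 0.

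A list of 65 other FGF pathway genes was read in the same way. In FAPs, 16 of them reached 50 CPM in a tissue, 1 was past 2-fold higher in diaphragm and 1 lower, where 3.65% and 3.04% of 3319 genes were. The higher gene was Hs3st1, a heparan sulfate sulfotransferase, at 24.9 CPM in quadriceps and 63.8 CPM in diaphragm (log2 fold 1.33), and the lower was Flrt2, a membrane protein of a family that binds FGF receptors, at 143 and 69.0 CPM (-1.04). None of the 17 other FGF family genes listed reached 50 CPM in FAPs. Fgfr3 and Fgfr4 did not either, with 9 and 7 UMIs in quadriceps FAPs and 2 and 1 in diaphragm FAPs. Of 13 other feedback genes and ERK targets, Spred1 and Rasa1 reached it, and neither passed 2-fold. Between FBN1+ and LUM+ FAPs 13 of the listed genes reached 50 CPM and 0 were called, where 2.99% of 3046 genes were higher and 2.53% lower. Of the 46 with a UMI in all 4 groups, 1 was called higher in FBN1+ FAPs (Hs3st1) and 6 lower (Spry4, Dusp6, Etv1, Etv4, Sdc1 and Sdc3). Among all 13505 genes with a UMI in those groups, 1.78% were higher and 2.37% lower.

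In the other classes, with both libraries summed, several pathway genes had levels far above those of all other cells. Fgfr4, the FGF receptor known from satellite cells, was at 321 CPM in satellite-like cells and 0.346 CPM in all others, and Hs6st2, a heparan sulfate sulfotransferase, at 115 and 0.821 CPM. Sdc4, a heparan sulfate proteoglycan known from satellite cells, was at 715 and 117 CPM. Fgf9 was at 180 CPM in tenocyte-like cells and 2.73 CPM elsewhere, from 194 UMIs. Fgfr3 was at 146 CPM in endothelial-like cells, which were led by the lymphatic genes Ccl21a and Mmrn1, and at 0.190 CPM elsewhere, from 34 UMIs. Dusp5, an ERK phosphatase, was at 212 CPM in NK-like and 112 CPM in T-like cells. In mesothelial-like cells Spry4 was at 98.5 CPM (16.1 CPM elsewhere), Dusp6 at 94.1 CPM (15.1 CPM) and Etv1 at 111 CPM (19.8 CPM), while Gpc3, a cell surface heparan sulfate proteoglycan, was at 2141 CPM (167 CPM). Gab1, a receptor adaptor, and Etv1 were at 162 and 116 CPM in Schwann-like cells.

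**Figure D5:**
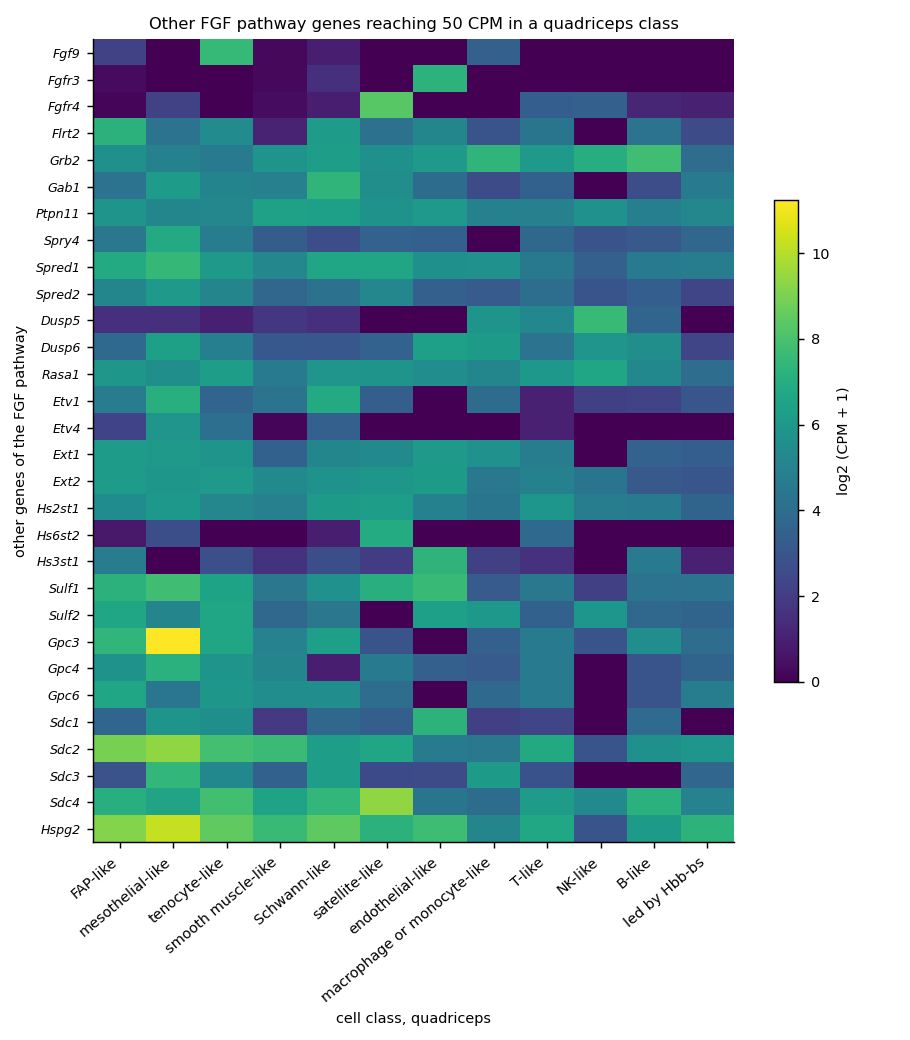
Levels in quadriceps, as log2(CPM + 1) (colour scale), of the 30 listed FGF pathway genes that reached 50 CPM in a class (rows), over 12 cell classes with at least 20 cells (columns). Fgf9 stands out in tenocyte-like, Fgfr3 in endothelial-like, Fgfr4 and Hs6st2 in satellite-like and Dusp5 in NK-like cells.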

How the data were processed

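Single-cell 3′ RNA libraries of quadriceps and diaphragm, 1 each, were available as gene by barcode matrices of raw UMI counts, which the authors made with Cell Ranger 3.0.0 on mm10 according to the submitters' processing notes and deposited without normalization. Cells were sorted on scatter for viability. The members and gene lists were chosen with earlier results of these data known.

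Barcodes with at least 1000 UMIs and no more than the median plus 3 scaled median absolute deviations of log10 UMIs per library were kept. No mitochondrial limit was set in the values reported. Scanpy 1.11.5 scaled counts to 10000 per cell, took logs and scaled genes within each library, and Leiden clustering used 2000 variable genes, 20 components, 20 neighbours and resolution 0.5, without the members and 65 pathway genes. The 20 components were chosen after 10 had merged T and NK cells. Markers counted as raised with a UMI in 10% of cells or more and a level 2-fold above the median cluster. Naming needed 3 raised markers and the largest share of a list. FAPs of FAP-like clusters were subclustered with 10 components and resolution 0.5. Scrublet calls were kept and flagged.

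Intervals for levels (Poisson), ratios (conditional binomial) and shares (binomial) are exact at 95% and cover counting error only. A count of 0 was given the limit of 3 counts. With 1 library a group there was no test, and called means at least 1 in log2(CPM + 1). Counts of members against FAP-like cells took genes at 50 CPM or more in either class, with members at 0 UMIs at the limit of 3 counts. The shares of all genes beside them kept 0 UMIs at 0. Thinning drew 2000 UMIs per cell. Depths were 50854519 and 28545242 UMIs in 7658 barcodes. Named genes were all members, listed pathway genes past 2-fold between tissues in FAPs, up to 5 pathway genes per class by ratio to other cells, and the 3 genes most like each member. Positions are from GENCODE M21 and upstream windows from RefSeq, both on GRCm38. The fold calculation was tested on simulated counts. Alternatives covered the mitochondrial limit, UMI limit, denominator, scaling, pseudocount, doublets, FAP criteria, thinning and clustering.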

Additional observations from a re-analysis of the deposited data

Results flagged for a closer look

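The 218 barcodes left out by the limits on UMIs, of which only those over the upper limit entered an alternative, held UMIs of the FGF genes above the limit that a count of 0 allows. Over both libraries they held 25 of Fgf1, 10 of Fgf2, 11 of Fgf18, 38 of Fgfr1, 23 of Spry1 and 23 of Spry2. Between FBN1+ and LUM+ FAPs, Fgfr2 and Spry2 lay on opposite sides in quadriceps and diaphragm, and the difference between tissues was not tested. Fgfr2 had a log2 fold of -0.33 in quadriceps and 0.057 in diaphragm, from 21 and 35 UMIs in FBN1+ and LUM+ FAPs of quadriceps and 9 and 13 in those of diaphragm. Spry2 had -0.25 in quadriceps and 0.16 in diaphragm.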

How the results depend on the processing

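No paired analysis was possible because each tissue had 1 library. None of the members passed 2-fold between tissues in FAPs under any of the 10 alternatives, and their signs were those of the main values except where a range crosses 0. These ranges, on the log2 scale, ran from -0.85 to -0.40 for Fgf1, from -0.06 to 0.04 for Fgfr1 and from -0.16 to 0.03 for Spry1. With a minimum of 10 CPM, 2 other pathway genes were past 2-fold higher in diaphragm in place of 1. The calls between FBN1+ and LUM+ FAPs depended on the subclustering. In place of 2 members higher and 2 lower, there were 0 and 1 with the 5% mitochondrial limit, 1 and 1 without doublet calls, 0 and 1 with genes centred over both libraries, 0 and 1 with 20 components, 1 and 0 with the Mfap4-led cells added, and 1 lower at resolution 1.0. The settings with 20 components and with the Mfap4-led cells were chosen after seeing the data. With genes centred over both libraries, the diaphragm values of Fgf1, Fgf10 and Fgf18 reversed to -0.40, 0.93 and -0.29. The members above immune-like cells in both tissues numbered 3 in place of 6 under the mitochondrial limit. The causes were not tested. Of the values for single genes, 185 moved by less than their counting interval or kept their call, 84 moved by more and 3 reversed. With 1 library a tissue, differences between animals and between preparations cannot be separated from those between muscles.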

Other observations

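Of the 13 other feedback genes and ERK targets listed, 12 had a UMI in both FAP subtypes of both tissues. In FBN1+ against LUM+ FAPs, 4 of them were past 2-fold lower in both tissues and 0 higher, where 2.37% and 1.78% of 13505 genes were, and by sign alone 8 were lower in both, 2 higher in both and 2 differed between tissues. The 4 were singled out after their values were seen, and all lay under 50 CPM. Spry4, a Sprouty inhibitor, was at 8.54 CPM in FBN1+ and 32.5 CPM in LUM+ FAPs of quadriceps (log2 fold -1.81) and at 9.16 and 24.6 CPM in diaphragm (-1.33). Etv1, an ETS factor induced by ERK signalling, was at 11.3 and 37.5 CPM in quadriceps (-1.64) and at 7.58 and 21.0 CPM in diaphragm (-1.36). Dusp6, an ERK phosphatase, was at 6.92 and 18.9 CPM (-1.33) and at 9.32 and 21.0 CPM (-1.10). Etv4 was at 1.44 and 5.79 CPM (-1.48) and at 0.790 and 2.96 CPM (-1.15), from 5 UMIs in FBN1+ FAPs of diaphragm. Etv5 had -0.94 in quadriceps and -0.34 in diaphragm and was not past 2-fold in either tissue on the log2(CPM + 1) scale. Its ratio without the added 1 was 0.487 in quadriceps. Il17rd, a feedback inhibitor, was higher in FBN1+ FAPs by 0.37 and 0.56.

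In FAPs the heparan sulfate genes gave 12 of the 16 pathway genes compared. Sulf2, which removes sulfate groups from heparan sulfate, was at 94.3 CPM in quadriceps and 189 CPM in diaphragm, a log2 fold of 1.00 that fell just short of the call, and Fgf16 was at 8.34 and 21.3 CPM (1.26), under the minimum.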
